A study of Bos indicus x Bos taurus with 17 samples.

Results

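The myogenic transcription factors were described in skeletal muscle of bovine fetuses, with liver of the same fetuses as the contrast. The set holds 9 genes chosen by name: PAX3 and PAX7, the 4 myogenic regulatory factors MYF5, MYOD1, MYOG and MYF6, and the MEF2 genes MEF2A, MEF2C and MEF2D. Of the 9, 8 had a row among the 21048 genes of the count tables, and PAX7 was not analysed here. Messenger RNA was sequenced from 6 fetuses of about day 105, all F1 crosses of Bos indicus (Nelore) and Bos taurus (Holstein). Control-AI was the pair of fetuses conceived by artificial insemination, Control-AI 2 and Control-AI 4. ART-Normal was the 4 fetuses produced in vitro by assisted reproductive technology, ART-Normal 1 to 4, all healthy by the labels. The study describes its ART-Normal fetuses as near the controls in weight, and for ART-Normal 4, which it does not list, no weight was given in the sources used here. No fetus received a further treatment according to the labels, fetal sex and the named muscle were not given in the sources used here, and each library came from 1 fetus. The comparison of ART-Normal with Control-AI asks what differs with the method of conception. By the labels both controls belong to these libraries, while the study's methods take control RNA-seq data from earlier work, so conception and any separate origin of the control libraries cannot be told apart.

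Skeletal muscle forms from progenitor cells that carry the paired-box factors PAX3 and PAX7. MYF5 and MYOD1 commit these cells to the muscle lineage, MYOG drives them to fuse and differentiate, and MYF6 (also named MRF4) acts in determination and again in maturing fibres. These basic helix-loop-helix (bHLH) factors bind E-box DNA as dimers with E proteins and are held back by ID proteins and other repressors. The MEF2 factors are MADS-box proteins that act with them on genes of the contractile apparatus, and unlike the bHLH factors they are used in many tissues. Hepatocytes and blood-forming cells of the fetal liver do not belong to the muscle lineage.

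Total counts per library ranged from 12433300 to 23578362 in muscle and from 18454088 to 43339598 in liver, and Control-AI 2 had the lowest total in both tissues. The summed level of 8 skeletal muscle markers was 18529 to 25506 CPM (counts scaled to a common library size) in muscle and 7.27 to 8.44 in 5 liver libraries, and 42.4 in the liver of Control-AI 2. The summed level of 8 hepatocyte markers was 28996 to 55429 CPM in 5 livers and 337484 in the liver of Control-AI 2. In that liver AHSG was at 149045 CPM against 3921 to 8290 CPM in the others, and ALB at 74805 against 6893 to 13049. SERPINA1 and AFP were also well above the others, and FGB slightly. HNF4A (260 against 224 to 290 CPM), TTR and APOA1 lay within the range of the other livers. In muscle the hepatocyte sum was 25.0 to 63.0 CPM in 5 libraries and 368 in Control-AI 2. There, too, HNF4A and APOA1 of Control-AI 2 lay within the range of the others. Both libraries of Control-AI 2 thus stood apart, and the spread of the members in muscle, their correlations and the comparisons of conception groups are also given without them.

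PAX3 was barely detected in either tissue. It is listed on chromosome 2 from 110369553 to 110471285 on the minus strand of ARS-UCD1.2, the build of all positions given here. In muscle it had 2, 1, 1 and 0 reads in ART-Normal 1 to 4 and 1 read in each control. In liver it had 1 read in each of ART-Normal 2 and 3 and 0 in the other libraries. The pooled ratio of muscle to liver was 3.82, with a 95% exact interval of 0.683 to 38.7 that covers counting error only, so no difference was detectable at this depth. PAX3 passed no filter on low values and was not tested further.

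MYF5 and MYF6 lie next to each other on the plus strand of chromosome 5, MYF6 at 10275399 to 10277216 and MYF5 at 10284434 to 10287669, with 7217 bp between them. The level of MYF5 in muscle was 41.6, 55.2, 52.6 and 46.6 CPM in ART-Normal 1 to 4, with 44.8 CPM for Control-AI 2 and 47.4 CPM for Control-AI 4. Both controls sat within the range of the ART-Normal fetuses. The level of MYF6 was 19.5, 22.2, 20.2 and 25.9 CPM in ART-Normal 1 to 4, with 28.5 CPM for Control-AI 2 and 23.9 CPM for Control-AI 4. Control-AI 2 was the highest of the 6 for MYF6, and Control-AI 4 fell between ART-Normal 2 and ART-Normal 4. Across the 6 muscle libraries the log2 CPM values of these neighbours had a Pearson r of -0.15, given as a description.

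MYOD1 varied most among the 4 regulatory factors when all 6 fetuses were counted, with an SD of its log2 CPM over the 6 muscle libraries of 0.33, at the 84.3rd percentile of the 11695 genes tested in muscle. It is listed on chromosome 15 from 34794120 to 34796767 on the minus strand. Its level in muscle was 48.3, 53.8, 63.8 and 60.3 CPM in ART-Normal 1 to 4, with 86.9 CPM for Control-AI 2 and 46.2 CPM for Control-AI 4. The controls were thus the highest and the lowest of the 6 fetuses, and all 4 ART-Normal fetuses lay between them. Without Control-AI 2 the SD of MYOD1 was 0.20, at the 64.0th percentile. It was still the largest of the 4, beside 0.17 for MYF6, 0.17 for MYOG and 0.16 for MYF5. Over the ART-Normal fetuses alone it was 0.179, below that of MYF5 (0.183) and MYF6 (0.182). The rank of MYOD1 thus held without Control-AI 2 but not without both controls. In the same library of Control-AI 2 the hepatocyte markers were at 368 CPM, and the 9 erythroid markers were at 93.9 CPM against 203 to 651 CPM in the other 5. The largest of the erythroid markers, HBG, was at 80.8 CPM against 169 to 544 CPM, while AHSP was highest in Control-AI 2 (2.88 CPM). The part of these differences in the level of MYOD1 was not tested. In bulk tissue, fewer cells of a type and less RNA per cell cannot be told apart.

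MYOG, the factor of differentiation, is listed on chromosome 16 from 797555 to 800395 on the minus strand. Its level was 129, 150, 162 and 171 CPM in ART-Normal 1 to 4, with 173 CPM for Control-AI 2 and 137 CPM for Control-AI 4. The group means were close, at 153 ± 18.2 CPM (SD, n = 4) in ART-Normal and 155 ± 25.2 CPM (SD, n = 2) in Control-AI. ART-Normal 1 was the lowest of the 6, and its summed skeletal muscle markers were also the lowest, at 18529 CPM against 22380 to 25506 CPM in the other 5.

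**Figure D1:**
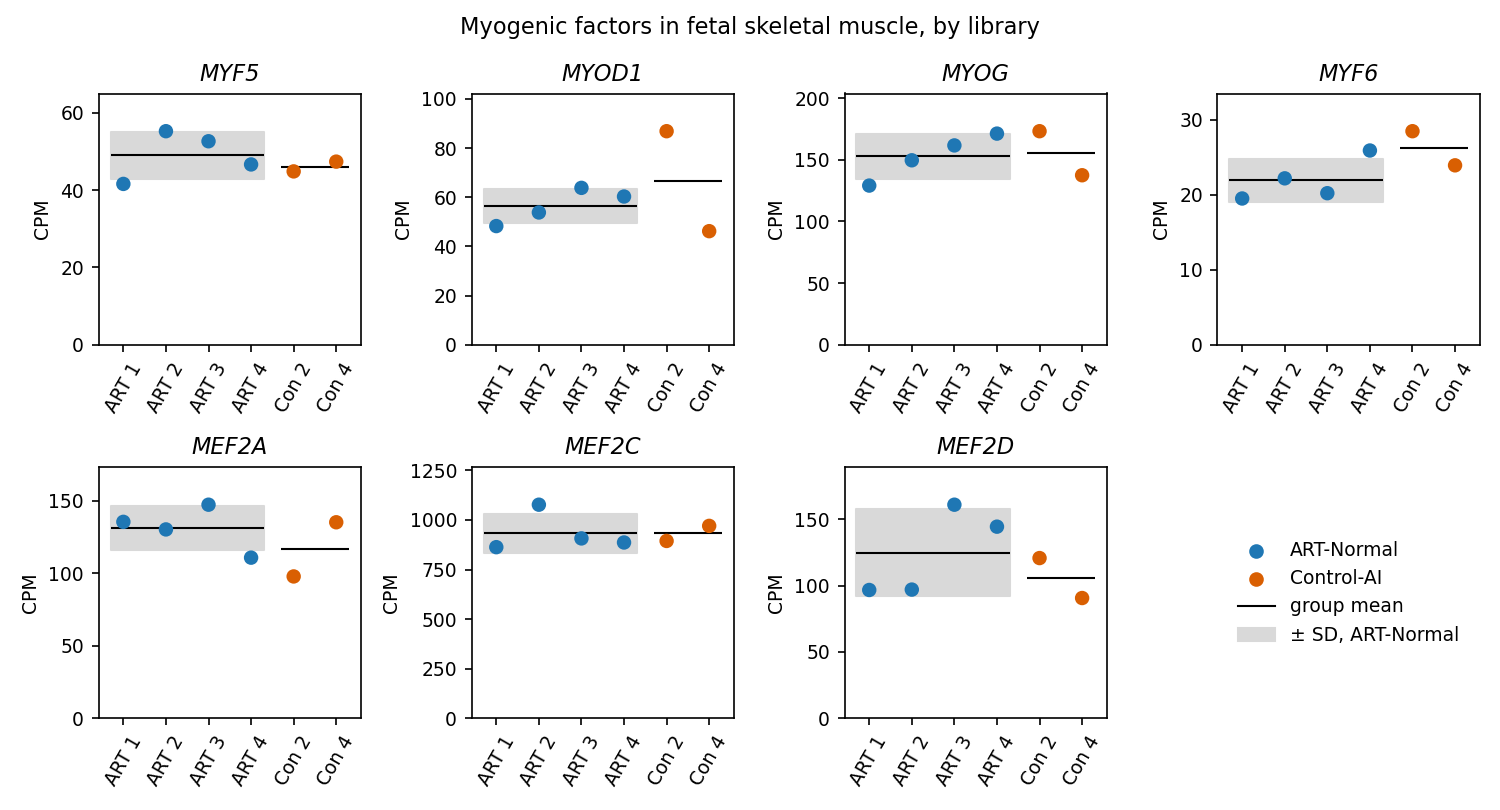
Level of 7 myogenic factors in each fetal muscle library, in CPM on linear axes that start at 0, with points for the 4 ART-Normal and 2 Control-AI fetuses, a line at each group mean and a grey band of 1 SD around the ART-Normal mean. Control-AI 2 and Control-AI 4 are the highest and lowest of the 6 for MYOD1 (86.9 and 46.2 CPM), and ART-Normal 3 and 4 are the highest for MEF2D (161 and 144 CPM).

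Levels of different genes can be compared only per length, here per kb of the gene span over which reads were counted. On this scale MYOG was at 54.1 ± 6.36 CPM per kb (SD, n = 6), MYOD1 at 22.6 ± 5.61, MYF5 at 14.9 ± 1.56 and MYF6 at 12.9 ± 1.89. MYOG exceeded MYOD1 and MYOD1 exceeded MYF5 in 6 of 6 libraries, without overlap of their ranges. The divisor is the whole span, introns included, and the step from MYOD1 to MYF5 depends on it. Unscaled, the ratio of MYF5 to MYOD1 counts was 1.03 in ART-Normal 2 and 1.02 in Control-AI 4. MYF5 exceeded MYF6 in 5 of 6 libraries, and their ranges of 12.9 to 17.1 and 10.7 to 15.7 CPM per kb overlapped. On this scale the last step of the order was thus within the spread between fetuses. That step also depends on the divisor: unscaled, the ratio of MYF6 to MYF5 counts was 0.38 to 0.64 in the 6 libraries. MYOG made up 49.4% to 53.9% of the summed level per kb of the 4 factors in the 6 libraries. The spans of the MEF2 genes are mostly intron, so the MEF2 genes were not ranked against these or each other.

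The ratio of 2 factors within a library does not depend on the scaling between libraries. The ratio of MYOG to MYOD1 counts was 2.67, 2.78, 2.53 and 2.84 in ART-Normal 1 to 4, 1.99 in Control-AI 2 and 2.97 in Control-AI 4. The 95% exact interval of Control-AI 2, 1.86 to 2.14, lay below those of the other 5 libraries, the lowest of which began at 2.38. The ratio of MYF5 to MYOD1 counts was 0.86, 1.03, 0.82 and 0.77 in ART-Normal 1 to 4, 1.02 in Control-AI 4 and 0.52 in Control-AI 2, where the interval was 0.47 to 0.57. These intervals cover counting error only, and they set Control-AI 2 apart from Control-AI 4 as much as from the ART-Normal fetuses.

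Of 6 such ratios computed between the members, 1 did not overlap between the groups in muscle, where 16% of single genes did not. The ratio of MYF6 to MYOG counts was 0.151, 0.148, 0.125 and 0.151 in ART-Normal 1 to 4, and 0.164 and 0.174 in Control-AI 2 and 4. Its two-sided exact permutation p over the 15 splits of 4 against 2 fetuses was 0.133, and 0.80 after Benjamini-Hochberg adjustment over the 6 ratios. The test cannot pass the threshold of 0.05 in this design, and the intervals of ART-Normal 1 (0.137 to 0.166) and Control-AI 2 (0.147 to 0.184) overlapped.

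**Figure D2:**
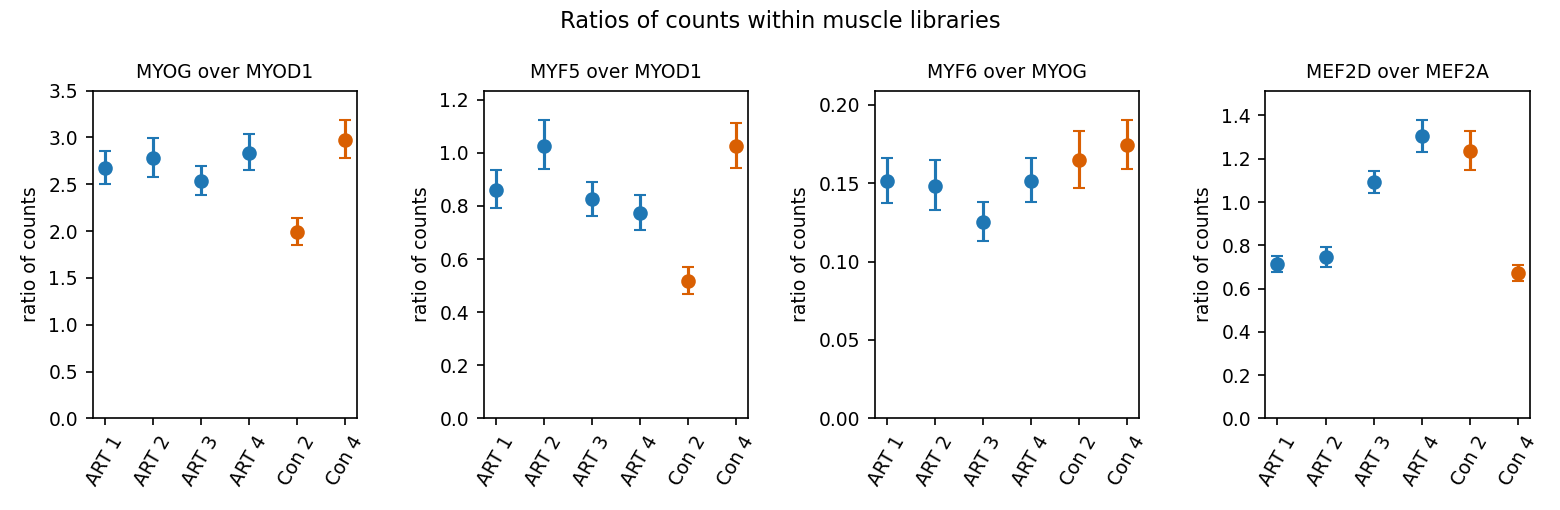
Ratio of the counts of 2 genes within each fetal muscle library, on linear axes that start at 0, with 95% exact intervals of the counts, for the 4 ART-Normal and 2 Control-AI fetuses. Control-AI 2 has the lowest ratio of MYOG to MYOD1 (1.99) and of MYF5 to MYOD1 (0.52), and MEF2D over MEF2A ranges from 0.67 in Control-AI 4 to 1.30 in ART-Normal 4.

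MEF2C, listed on chromosome 7 from 88246676 to 88425829 on the minus strand, is the MEF2 gene best known for its early role in skeletal and heart muscle. Its level in muscle was 863, 1077, 907 and 887 CPM in ART-Normal 1 to 4, with 894 CPM for Control-AI 2 and 970 CPM for Control-AI 4. It varied little between fetuses: the SD of its log2 CPM over the 6 libraries was 0.12, at the 14.4th percentile of the 11695 genes tested in muscle, where the median was 0.19, and without Control-AI 2 it was 0.13, at the 27.6th percentile. On the opposite strand MEF2C overlaps LOC112447530 (88404727 to 88417919), which was at 24.8 CPM in the muscle of Control-AI 2 and at 0.696 to 2.25 CPM in the other 5 muscle libraries. The strand setting of the counting was not given in the sources used here, so reads of this overlap may be shared.

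MEF2D, listed on chromosome 3 from 14323436 to 14362406 on the plus strand, differed most between the ART-Normal fetuses. Its level in muscle was 96.6, 96.9, 161 and 144 CPM in ART-Normal 1 to 4, with 121 CPM for Control-AI 2 and 90.6 CPM for Control-AI 4. The SD of its log2 CPM over the 4 ART-Normal fetuses was 0.38, at the 94.9th percentile of all genes tested, against 0.18 for each of MYF5, MYOD1, MYOG and MYF6 and 0.14 for MEF2C. In liver the same pair of fetuses was the highest of the 6, with 42.9 and 45.5 CPM in ART-Normal 3 and 4 against 34.1 to 38.0 CPM in the other 4.

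MEF2A, listed on chromosome 21 from 6860314 to 7040942 on the minus strand, was at 135, 130, 147 and 111 CPM in ART-Normal 1 to 4, with 97.8 CPM for Control-AI 2 and 135 CPM for Control-AI 4. Control-AI 2 was the lowest of the 6 in muscle. In liver the highest levels of MEF2A were 67.3 and 72.4 CPM, those of ART-Normal 1 and 2, and the other 4 fetuses had 48.0 to 53.7 CPM. The ratio of MEF2D to MEF2A counts therefore split the ART-Normal fetuses in both tissues. In muscle it was 0.71 and 0.74 in ART-Normal 1 and 2 against 1.09 and 1.30 in ART-Normal 3 and 4, and in liver 0.51 and 0.52 against 0.80 and 0.95. The controls did not share 1 side of this split, with 1.23 and 0.67 in the muscle of Control-AI 2 and 4 and 0.70 and 0.75 in their livers.

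Across the 6 muscle libraries, the members with the closest patterns were MYOD1 and MYOG, with a Pearson r of 0.85 between their log2 CPM values. The lowest r was that of MYF6 and MEF2A, at -0.90. These are the extremes of 21 pairs over 6 libraries and are given as a description, with Control-AI 2 at 1 end of all 4 genes. Over the 5 libraries without Control-AI 2, r was 0.90 for MYOD1 and MYOG and -0.79 for MYF6 and MEF2A, and the closest pair was then MYOD1 and MEF2D, whose r rose from 0.58 to 0.94.

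None of the myogenic factors passed the test between ART-Normal and Control-AI in muscle. Of the 8 listed members, 7 passed the filter on low values, 5 CPM or more in every library of either group. With edgeR's quasi-likelihood test and Benjamini-Hochberg adjustment over 11695 genes, 0 of the 7 reached an adjusted p of 0.05 or lower, beside 1 gene of all tested (0.00855%). An unadjusted p under 0.05 was reached by 0 of the 7 and by 9.19% of all genes, and 0 of the 7 had groups that did not overlap, beside 16% of all genes. The likelihood ratio test and DESeq2 also called 0 of the 7. The gene past the threshold was ANKRD1, which encodes a titin-linked stress protein of muscle, named after its values were seen (log2 fold change -2.05 ± 0.19 SE, adjusted p = 0.0055). It missed the threshold without ART-Normal 4 (-2.10, edgeR adjusted p = 0.0852) and with both tissues in 1 fit (-2.06, edgeR adjusted p = 0.175). Counts past the threshold in other fits of this comparison are given with the dependence on the processing.

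The intervals show how large a difference these libraries could still hold. On a linear scale, ART-Normal over Control-AI was 1.07-fold for MYF5 (95% interval 0.847 to 1.34), 0.988-fold for MYOG (0.781 to 1.25) and 1.01-fold for MEF2C (0.794 to 1.27). The fold was 0.855 for MYOD1 (0.607 to 1.2) and 0.842 for MYF6 (0.649 to 1.09). It was 1.13 for MEF2A (0.879 to 1.45) and 1.19 for MEF2D (0.839 to 1.67). The adjusted p-values of these 7 genes ranged from 0.716 for MYF6 to 0.995 for MEF2C.

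Leaving out a control changed the sign for 4 of the 7 members, among them MYOD1. Its log2 fold change was -0.23 ± 0.22 (SE) with both controls. Without Control-AI 2 it was 0.29, and without Control-AI 4 it was -0.60. These fits leave 1 control, which is assumed to vary like the ART-Normal fetuses, so only their effect sizes are given. The value of MYOD1 without Control-AI 4 rests on Control-AI 2 as the only control. The log2 fold change of MEF2A was -0.05 when Control-AI 2 was left out and 0.44 when Control-AI 4 was. In the same order it was 0.15 and -0.16 for MYOG and -0.059 and 0.079 for MEF2C. The value of MEF2D was 0.25 with all 6 fetuses, 0.45 without Control-AI 2, 0.06 without Control-AI 4 and 0.10 without ART-Normal 3.

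In liver, where only the MEF2 genes passed the filter, none of the 3 passed the test between the groups. Beside 0% of the 11304 genes past the threshold, 8.39% at an unadjusted p under 0.05 and 18.4% with groups that did not overlap, the count for the 3 MEF2 genes was 0 by each of these measures, and 0 by DESeq2 and the likelihood ratio test. On the log2 scale the liver difference, ART-Normal minus Control-AI, was 0.26 ± 0.18 (SE) for MEF2A, 0.15 ± 0.17 for MEF2C and 0.14 ± 0.16 for MEF2D, with edgeR adjusted p-values of 0.629, 0.741 and 0.757. As folds, the 95% intervals were 0.908 to 1.59 for MEF2A, 0.859 to 1.44 for MEF2C and 0.861 to 1.41 for MEF2D. The interaction of tissue and conception group, which tests whether the difference itself differs between the tissues, was passed by 0 of 12923 genes (0%; 5.5% at an unadjusted p under 0.05). Its log2 value, muscle minus liver, was -0.10 ± 0.26 for MEF2A, -0.16 ± 0.23 for MEF2C and 0.10 ± 0.31 for MEF2D. For the bHLH factors the interaction has no usable value, since their liver counts were at or near 0.

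**Figure D3:**
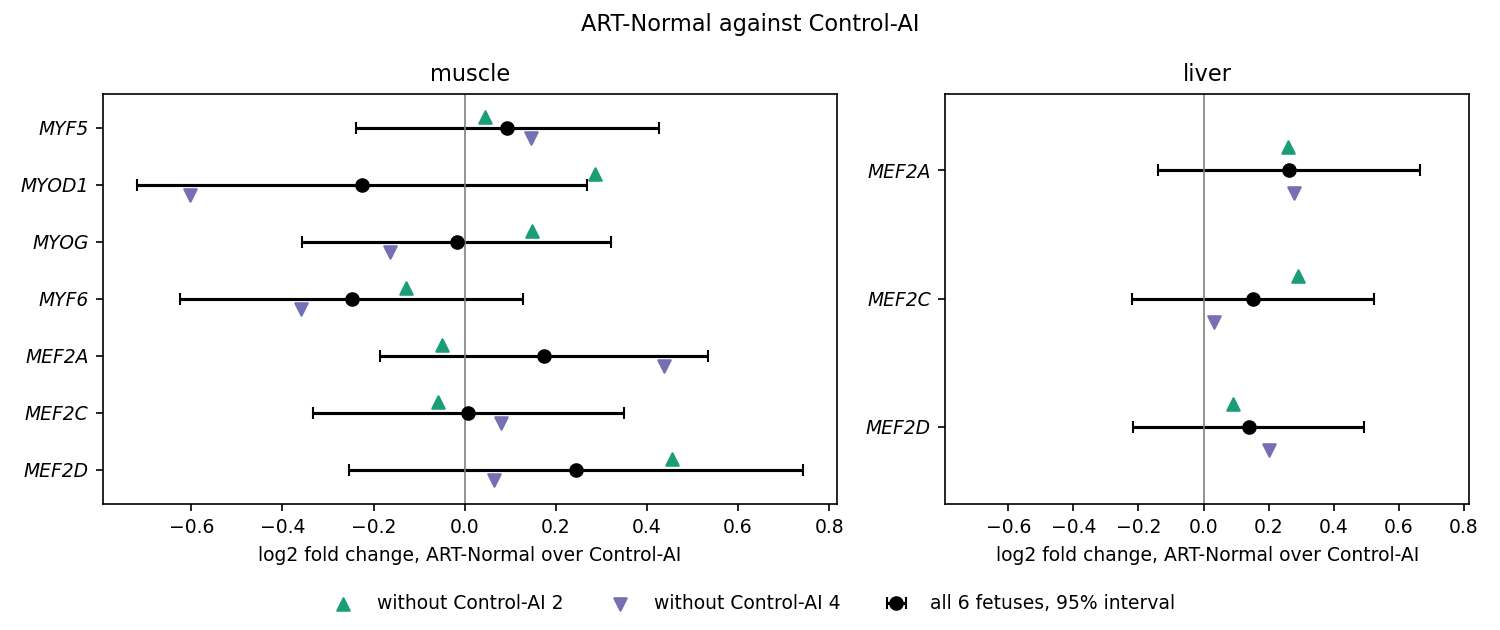
ART-Normal against Control-AI as log2 fold changes, in muscle (7 genes) and liver (3 genes), with black points and 95% intervals for all 6 fetuses and triangles for the fits without Control-AI 2 or without Control-AI 4. Every interval of the 6-fetus fits includes 0, and the MYOD1 triangles lie on opposite sides of 0, at 0.29 and -0.60.

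The bHLH factors had few or no reads in liver. MYOD1 had 7122 reads in the 6 muscle libraries and 0 in the 6 liver libraries, so its pooled level was at least 3023-fold higher in muscle, against a floor of 3 counts over the liver group. MYOG had 18693 reads in muscle and 1 in liver, in Control-AI 2, a ratio of 23801 with a 95% exact interval of 4271 to 940128. That liver library is also the one whose skeletal muscle markers were at 42.4 CPM against at most 8.44 CPM in the other 5. Without Control-AI 2, MYOG had 0 reads in liver.

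MYF5 and MYF6 kept a low level in liver. MYF5 had 7, 0, 10 and 10 reads in the livers of ART-Normal 1 to 4 and 3 and 4 in those of Control-AI 2 and 4, and its pooled ratio of muscle to liver was 222 (95% exact interval 158 to 320). MYF6 had 2, 20, 18 and 7 reads in the livers of ART-Normal 1 to 4 and 5 and 6 in those of Control-AI 2 and 4, with a ratio of 62.1 (47.9 to 82.0). The liver of Control-AI 2, with the raised skeletal muscle markers, was at 0.217 CPM for MYF5 and 0.361 CPM for MYF6. The other livers were at 0 to 0.408 and 0.0929 to 0.734 CPM. The source of these reads was not tested. All 4 bHLH factors entered the test between the tissues only through their level in muscle, so their calls carry no weight, and the ratios are given as a description.

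The 3 MEF2 genes were measured well in both tissues and were each higher in muscle in 6 of 6 fetuses. MEF2C was at 933 ± 79.2 CPM (SD, n = 6) in muscle and 34.2 ± 4.42 CPM in liver. Its liver level was 41.9, 35.5, 33.6 and 30.9 CPM in ART-Normal 1 to 4, with 34.3 CPM for Control-AI 2 and 29.2 CPM for Control-AI 4, and no liver came near any muscle. The log2 fold change was 4.77 ± 0.12 (SE; edgeR adjusted p = 3.67e-13), and within a fetus MEF2C was 20.6-fold to 33.1-fold higher in muscle.

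MEF2D and MEF2A differed less between the tissues. MEF2D was at 118 ± 28.9 CPM in muscle and 38.8 ± 4.57 CPM in liver (SD, n = 6), a log2 fold change of 1.60 ± 0.14 (edgeR adjusted p = 1.06e-07). MEF2A was at 126 ± 18.3 CPM in muscle and 56.9 ± 10.3 CPM in liver, a log2 fold change of 1.15 ± 0.12 (edgeR adjusted p = 5.65e-07). Within a fetus MEF2D was 2.38-fold to 3.74-fold and MEF2A 1.80-fold to 2.74-fold higher in muscle. Of all 12923 genes tested, 81.3% passed this threshold, 40.7% as higher and 40.6% as lower in muscle, and 32.7% were higher in muscle without overlap, so a call between the tissues is common and the size carries the description. The log2 fold change of MEF2C stood at the 95.4th percentile of all genes tested, that of MEF2D at the 83.0th and that of MEF2A at the 77.9th. The ratio of MEF2C to MEF2A counts was 6.16 to 9.14 in muscle and 0.49 to 0.70 in liver, without overlap.

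**Figure D4:**
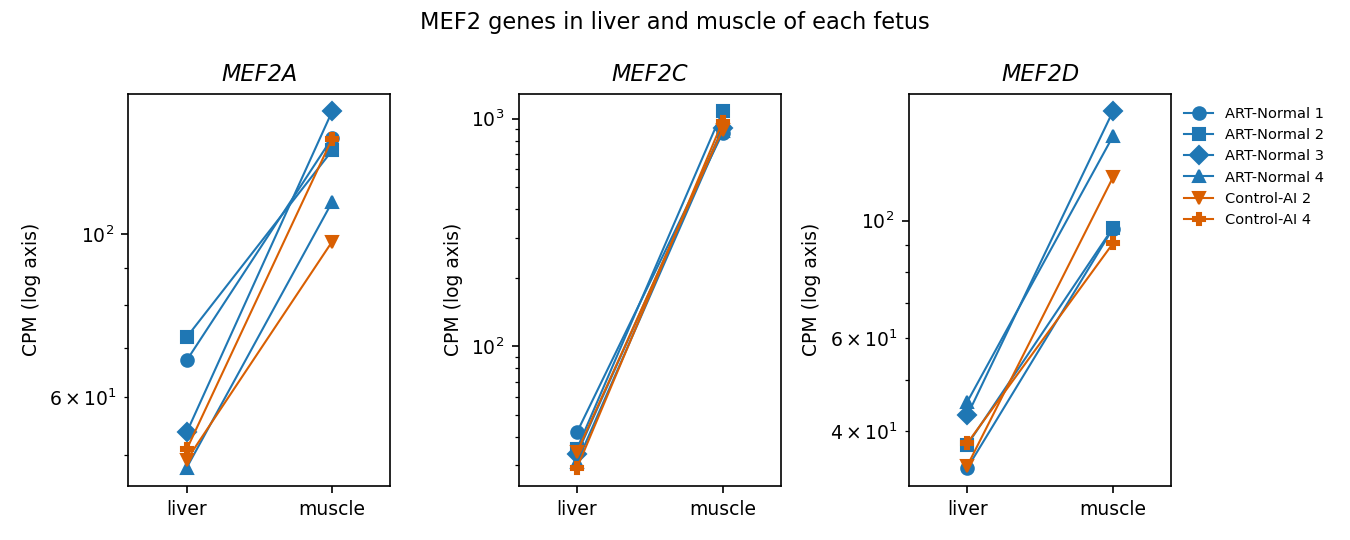
Level of MEF2A, MEF2C and MEF2D in liver and muscle of each fetus, in CPM on log axes whose ranges differ between the panels, with a line joining the 2 libraries of a fetus. All 3 genes are higher in muscle in 6 of 6 fetuses, MEF2C by the largest fold of the 3 (20.6-fold to 33.1-fold), and ART-Normal 3 and 4 are the highest for MEF2D in both tissues.

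The pathway around the myogenic factors was followed in 7 lists of 127 genes, 123 of them in the tables. Between ART-Normal and Control-AI in muscle, 0 of the 112 listed genes tested passed the threshold, beside 0.00855% of all genes, and 17 (15.2%) had an unadjusted p under 0.05, beside 9.19%. By list these were 2 of 17 upstream and progenitor regulators, 0 of 3 E proteins, 3 of 18 bHLH inhibitors, 4 of 16 MEF2 partners and repressors, 4 of 12 fetal and fibre type regulators, 1 of 20 progenitor and satellite cell genes and 3 of 26 differentiation targets. The median log2 fold change was 0.32 for the fetal and fibre type regulators, 11 of 12 of which were above 0, and between -0.05 and 0.12 for the other 6 lists, beside 0.00069 for all genes. Fits without a control leave 1 control, so only effect sizes are given for them. Without Control-AI 2 the median log2 fold change of the 112 listed genes was 0.058, beside -0.0015 for all genes. Without Control-AI 4 it was -0.034, beside -0.00023 for all genes. The median of the fetal and fibre type regulators was 0.23 without Control-AI 2, with 10 of 12 above 0, and 0.45 without Control-AI 4. In the same muscle libraries the summed level of 8 connective tissue markers was 15955 to 18216 CPM in ART-Normal and 20406 to 20603 CPM in Control-AI. That of 4 motor nerve markers was 7.45 to 10.1 and 10.8 to 11.8 CPM. Neither sum overlapped between the groups, while the sums of the other cell type marker lists did. Of single genes tested in muscle, 16% did not overlap. None of the 4 motor nerve genes kept the groups apart by itself. Of the connective tissue genes, PDGFRA, TCF7L2 and DPT overlapped and the others did not. The part of these markers in the values of the lists was not tested.

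RORA and HDAC4 were picked as examples once the values were known. RORA, a nuclear receptor, was at 211 to 329 CPM in the muscle of ART-Normal, with 105 CPM for Control-AI 2 and 165 CPM for Control-AI 4 (log2 fold change 0.91 ± 0.22, edgeR adjusted p = 0.314). HDAC4, a deacetylase that represses MEF2 proteins, was at 69.2 to 129 CPM in ART-Normal, with 46.7 CPM for Control-AI 2 and 62.6 CPM for Control-AI 4 (0.76 ± 0.23, edgeR adjusted p = 0.372). Control-AI 2 was the lowest of the 6 for each. Without Control-AI 2 the log2 fold changes were 0.61 for RORA and 0.55 for HDAC4, and without Control-AI 4 they were 1.29 and 1.00. Each of these fits has 1 control, so only the effect sizes are given. In liver, 0 of 61 listed genes passed the threshold and 6 (9.84%) had an unadjusted p under 0.05, beside 8.39% of all genes. Without Control-AI 2 the median log2 fold change of the listed genes in liver was 0.113, beside 0.0073 for all genes. Without Control-AI 4 it was -0.033, beside 0.0077 for all genes.

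Between the tissues, 108 of 113 listed genes tested passed, beside 81.3% of all genes. This count is a description, since 60 of the 113 passed the filter in each tissue and most others entered through muscle alone and had to differ. Of these 60, 40 (66.7%) were higher in muscle and 15 (25%) lower, beside 36.8% and 40.1% of the 10076 genes that passed both filters. The counts of each list below share this limit, and those of the genes that passed both filters follow them. Of the upstream and progenitor regulators, 16 of 18 were higher in muscle and 2 lower, and 5 and 1 of the 6 that passed both filters. PITX3, a homeobox factor, was at 22.4 ± 3.06 CPM in muscle (SD, n = 6) with 0 reads in liver, at least 1170-fold higher. SIX2, a homeobox factor, was at 6.88 ± 2.64 CPM with 0 reads in liver, at least 358-fold higher. TCF21, a bHLH factor of mesenchyme, was at 0.123 CPM in muscle and 7.97 in liver, and FOXO3, a forkhead factor, at 87.3 and 414 CPM.

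Of the dimer partners and their inhibitors, the E proteins TCF4 and TCF12 were higher in muscle, with log2 fold changes of 3.71 ± 0.14 and 1.87 ± 0.10, and the other 1 of 3 did not pass. Of 18 bHLH inhibitors and repressors, 13 were higher in muscle, 3 lower and 2 did not pass, and of the 12 that passed both filters 7 were higher and 3 lower. HES6 was at 20.2 ± 4.02 CPM in muscle and 0.146 in liver, TWIST1 at 6.83 ± 1.38 and 0.0776, and MDFIC, which holds a MyoD family inhibitor domain, at 117 ± 14.1 and 12.8. The dominant-negative partners ID2 and ID1 went the other way, with 5.48 ± 1.31 and 15.4 ± 2.91 CPM in muscle and 33.8 ± 2.66 and 57.4 ± 22.5 CPM in liver. The list thus held genes of both directions.

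Of the MEF2 partners and repressors, 12 of 16 were higher in muscle and 4 lower, and 9 and 4 of the 13 that passed both filters. SMYD1, a methyltransferase of striated muscle, was at 233 ± 42.1 CPM in muscle and 0.0835 in liver. The vestigial-like cofactors VGLL2 and VGLL3 were at 128 ± 20.4 and 212 ± 36.5 CPM in muscle and 0.0767 and 0.681 in liver. MAPK14, the p38 kinase that phosphorylates MEF2 proteins, was lower in muscle (log2 fold change -1.39 ± 0.07), as was the coactivator NCOA2 (-0.70 ± 0.11).

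Of 12 fetal and fibre type regulators, 8 were higher in muscle, 3 lower and 1 did not pass, and of the 10 that passed both filters 6 were higher and 3 lower. TBX15 was at 119 ± 21.8 CPM in muscle with 4 reads in all livers. TEAD4 and NFIX, the latter a factor of the fetal muscle programme, had log2 fold changes of 4.36 ± 0.16 and 4.08 ± 0.18. PROX1 and SOX6, which act on fibre type in muscle and are also used in fetal liver and red cells, were lower in muscle, both with a log2 fold change of -1.35, with SE of 0.09 and 0.13.

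Of 20 progenitor and satellite cell genes, 15 were higher in muscle, 4 lower and 1 did not pass, and of the 13 that passed both filters 8 were higher and 4 lower. CDH15 (M-cadherin) was at 282 ± 61.2 CPM in muscle and 0.237 in liver, and MSTN (myostatin) at 88.5 ± 17.3 and 0.0539. CALCR, the calcitonin receptor of quiescent satellite cells, was at 12.1 ± 3.20 CPM in muscle with 1 read in all livers, a ratio of 1825 (95% exact interval 327 to 72116). VCAM1 and SDC4 were lower in muscle, at 31.7 ± 6.97 and 26.1 ± 3.06 CPM against 294 ± 57.2 and 174 ± 9.62 CPM in liver.

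All 26 differentiation targets tested were higher in muscle, beside 40.7% of all genes, with a median log2 fold change of 11.8 when the gene without liver reads was set at its bound. MYH8, the perinatal myosin heavy chain, was at 6549 ± 1718 CPM in muscle and 1.13 in liver. TNNC2, the fast troponin C, was at 1360 ± 213 and 0.147 CPM, and CHRNG, the fetal subunit of the acetylcholine receptor, at 380 ± 99.9 and 0.0482 CPM. Of these 26 genes, 3 also passed the filter in liver, and the others passed through muscle alone and had to differ. The list also holds muscle markers by its choice.

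**Figure D5:**
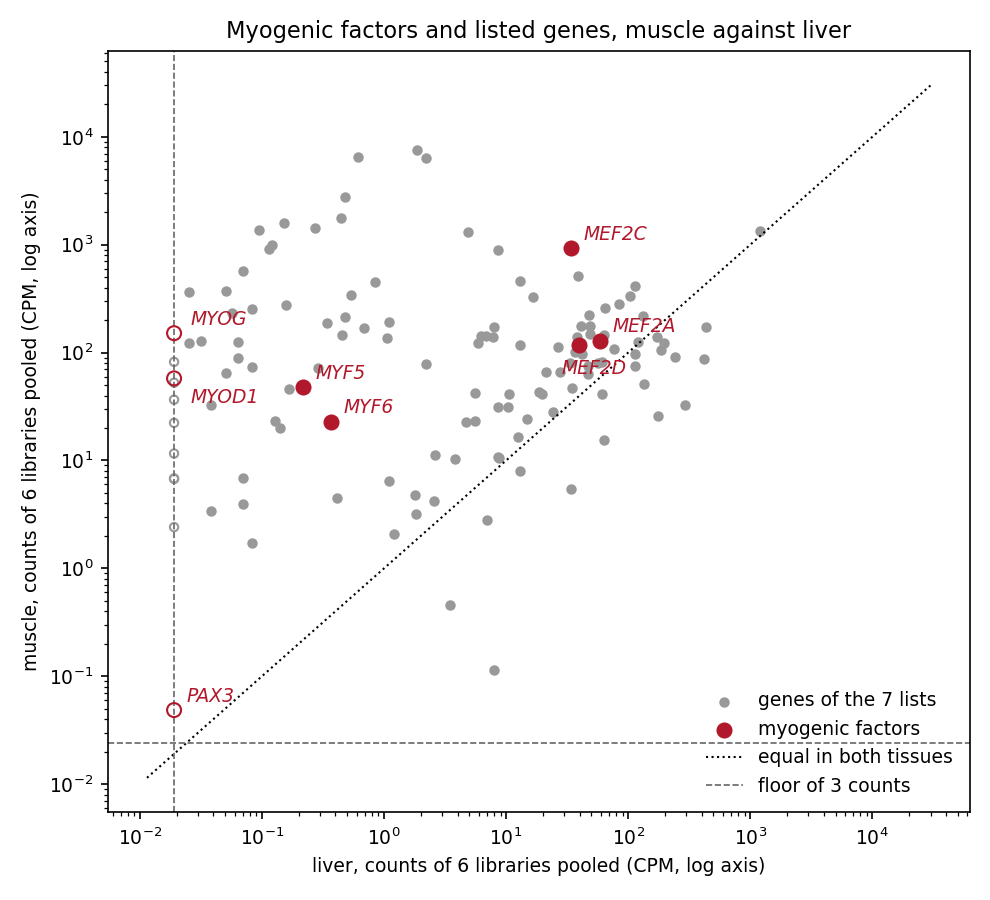
Pooled level of each myogenic factor (red) and each gene of the 7 lists (grey) in 6 muscle libraries against 6 liver libraries, in CPM on log axes, with the diagonal of equal levels and dashed lines at the floor of 3 counts; open symbols are at or under a floor. The 7 measured factors lie above the diagonal, MYOD1 and MYOG at the liver floor and MEF2A and MEF2D nearest the diagonal, while PAX3 is near both floors.

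Over the 12 libraries, the genes with the most similar log2 CPM were named for each tested member, as a description with the tissue difference setting most of each r. For MYOG these were CAV3 (r = 0.99995 over 12 libraries, 0.92 over the 6 muscle libraries) and TNNT1 (0.9997 and -0.06). For MEF2D they were BCOR (0.996 and 0.97) and AHDC1 (0.995 and 0.94), and for MEF2A STRN3 (0.994 and 0.92) and YAF2 (0.993 and 0.95). For MYOD1 they were UTS2R (0.999 and 0.68) and DBX1 (0.999 and 0.54), for MYF5 MLF1 (0.996 and 0.44) and ULK2 (0.995 and 0.15), for MYF6 PJA1 (0.996 and 0.14) and KLHL31 (0.995 and 0.54), and for MEF2C SETD7 (0.999 and 0.39) and LOC104969184 (0.999 and 0.81). Only 4 genes had r over 0.99 with MEF2A and 6 with MEF2D, against 608 with MYOG, 521 with MYOD1 and 476 with MEF2C.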

How the data were processed

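Gene counts of muscle and liver from 6 fetuses (12 libraries) were used, and kidney libraries were not analysed here. Per the labels, poly(A) RNA with RNA integrity numbers of 7.5 to 9.1 was made into strand-specific libraries and read as 150 bp pairs. The authors deposited raw counts per gene, with no normalization. Their processing notes name FastQC 0.11.7, HISAT2 2.1.0, SAMtools, featureCounts, Cufflinks and edgeR 3.24.3, and ARS-UCD1.2. Every listed gene length equals the whole span, so intronic reads fall within the counted regions. Of 26 count columns, 12 matched the samples and 14 were not used. The authors' tables of their own comparisons (log2 fold change, log2 CPM, likelihood ratio, p-value and FDR) were not used.

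CPM after TMM normalization over the 12 libraries gave the levels. edgeR 4.0.16 (R 4.3.3) fitted all genes that had 5 CPM or more in every library of some group, by the two-sided quasi-likelihood test, adjusted by Benjamini-Hochberg at a threshold of 0.05. ART-Normal was compared with Control-AI within each tissue without covariates, muscle with liver with conception group as a covariate, and their interaction over 4 groups. The paper does not list ART-Normal 4, whose group comes from the labels. The muscle and liver of a fetus entered the main fits as separate libraries, with no block for the fetus. Deviations from the group means correlated between the tissues of a fetus at r of 0.04 to 0.36 across genes. The 2 controls share the r of 0.36, since deviations from a mean of 2 mirror each other. As an alternative, the fit with the fetus as a block changed no call of a member. Ratios of pooled counts have 95% exact intervals and a floor of 3 counts. Libraries without molecular identifiers give intervals of counting error only. Members, lists and markers were chosen with earlier results of these data known. Named genes are all members, per list at most 3 genes highest and 2 lowest in fold change between the tissues among those past the threshold, any listed gene past it between conception groups, and the 2 genes most correlated with each member. A gene named by this rule is not reported here. ANKRD1, RORA and HDAC4 fall outside it and were picked with their values in view. Values without Control-AI 2 for the spread, correlations and lists, and list counts over genes past the filter in both tissues, were added after seeing the data. Scaling by coding length was planned, no annotation of the build was at hand, and the listed span was used instead. Alternatives were RLE, upper quartile and library size scaling, the likelihood ratio test, DESeq2 1.42.0, other filters, replicate blocks and leaving out each fetus. The procedures were tested on simulated data with 200 changed genes. Tables and plots used Python 3.11.15, pandas 2.3.3, SciPy 1.17.1 and Matplotlib 3.10.9.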

Additional observations from a re-analysis of the deposited data

How the results depend on the processing

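With 2 controls, the count of genes past the threshold in muscle (1) was 120 by the likelihood ratio test, 106 by DESeq2, 90 with the replicate block by label number and 0 to 1327 when a fetus was left out, highest without Control-AI 4. In liver (0) it was 6 by library size alone, 89 by the likelihood ratio test, 56 by DESeq2, 6 with the replicate block, 4 with both tissues in 1 fit and 0 to 830 without a fetus, again highest without Control-AI 4. The interaction (0) gave 98 by the likelihood ratio test, 37 by DESeq2 and 0 to 232 without a fetus. The cause was not tested. Library size alone moved the median log2 fold change of all genes to 0.21 in liver, 0.13 between the tissues and -0.21 in the interaction. The label numbers shared by the groups are only names: samples with the same number correlated at r of -0.13 to 0.01 in their deviations.

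Members past the threshold in muscle numbered 0 to 1 without a fetus (MYOD1, -0.60 without Control-AI 4) and 0 under every other alternative. The 3 MEF2 calls between the tissues held under 16 alternatives. Between the tissues, 3 of 7 were left with at least 10 counts in every library, since the bHLH factors then leave the test. Unscaled counts gave a ratio of MYF6 to MYOD1 of 0.401, against 0.585 per kb. MYF5, MYF6 and MEF2D kept their sign in muscle under 15 alternatives. Signs turned, all for values that were not called, as follows. MEF2C in muscle (0.0079) was -0.000328 by RLE, -0.022 by upper quartile, -0.011 by library size, -0.000391 by DESeq2 and -0.068 to 0.079 without a fetus. MYOG (-0.017) was 0.057 with the replicate block and -0.16 to 0.15 without a fetus. Without a fetus MYOD1 was -0.60 to 0.29 and MEF2A -0.049 to 0.44. In the interaction, MEF2D was -0.11 by library size and -0.16 to 0.35 without a fetus, where MEF2A was -0.33 to 0.14 and MEF2C -0.37 to 0.022. Depth limited PAX3, and the liver levels of the bHLH factors, to counting of single reads.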
